A study of Rattus norvegicus with 15 samples.

Results

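The subject is a group of 7 rat genes for channels that sense sodium, osmolality or cell stretch, measured in the subfornical organ. They are Scn7a (the sodium channel Nax), Scnn1a, Scnn1b and Scnn1g (the α, β and γ subunits of the epithelial sodium channel, ENaC), and Trpv1, Trpv2 and Trpv4 (vanilloid TRP channels). Every probe set whose gene symbol is one of the 7 was taken, which gave 12 of the 31042 probe sets that are not array controls. Of these, 11 carry 1 symbol and 1 (1369370_s_at) is annotated to both Trpv1 and Trpv4.

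The rats were male Sprague Dawley, 10 to 12 weeks old, in 3 groups: water-deprived rats, rats deprived of food for 48 h, and untreated controls, with 5 arrays each. Each array carried RNA pooled from the subfornical organs of 5 animals, so a group stands for 25 animals, and the spread among its arrays is that between pools and not between single rats. The labels give no length for the water deprivation, and the text on the study's design, taken word by word, has food withheld in all 3 conditions. No allele or agent is named, and no other treatment is said to be shared by the groups.

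The subfornical organ lies outside the blood-brain barrier on the roof of the third ventricle, next to the choroid plexus, and takes part in thirst and salt appetite. In rodents Nax is a channel of glial cells in this organ that opens when extracellular sodium rises. ENaC is built from its 3 subunits, lets sodium into epithelial cells and some neurons, and is placed in the membrane under the control of aldosterone. Trpv1 and Trpv4 have been linked to osmosensing in the organs around the third ventricle, and Trpv4 is also found in the epithelium of the choroid plexus. Trpv2 responds to stretch and swelling in several cell types.

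The stretches below lie just upstream of 4 genes on which the results turn, taken from RefSeq with the build GRCr8. Each is written 5′ to 3′ on the strand of its gene and ends 1 base before the first base of the RefSeq gene, within a table of 250 bases before to 50 after each gene's start. Scnn1b is shown as the 1 member called in a comparison, and Trpv4 is shown with Slc13a4 and Cgnl1, the genes whose levels followed it most closely. The third of those genes, Cldn2, is named only. Capitals mark a match to TGGAAA.
Scnn1b promoter, chr1:185861126-185861325, + strand: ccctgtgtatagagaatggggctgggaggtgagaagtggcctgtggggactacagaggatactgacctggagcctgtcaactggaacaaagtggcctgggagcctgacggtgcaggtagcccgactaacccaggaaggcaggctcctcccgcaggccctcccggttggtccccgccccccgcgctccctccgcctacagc
Trpv4 promoter, chr12:47598938-47599160, + strand: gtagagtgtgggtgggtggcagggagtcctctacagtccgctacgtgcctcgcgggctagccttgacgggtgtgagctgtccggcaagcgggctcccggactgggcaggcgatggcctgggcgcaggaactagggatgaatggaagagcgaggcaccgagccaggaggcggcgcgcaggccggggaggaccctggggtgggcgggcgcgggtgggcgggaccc
Slc13a4 promoter, chr4:64955987-64956236, - strand: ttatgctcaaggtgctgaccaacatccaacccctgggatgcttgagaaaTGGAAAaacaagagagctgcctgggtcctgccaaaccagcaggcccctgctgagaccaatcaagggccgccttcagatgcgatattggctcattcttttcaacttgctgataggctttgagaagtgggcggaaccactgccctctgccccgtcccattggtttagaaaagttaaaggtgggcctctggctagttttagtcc
Cgnl1 promoter, chr8:81305599-81305847, - strand: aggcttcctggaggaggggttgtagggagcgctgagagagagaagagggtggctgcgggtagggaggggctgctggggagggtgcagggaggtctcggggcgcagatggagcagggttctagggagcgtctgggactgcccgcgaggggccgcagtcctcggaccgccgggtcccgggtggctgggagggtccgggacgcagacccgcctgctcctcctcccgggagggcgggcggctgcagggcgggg

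The Scnn1b stretch of 200 bases had a G+C content of 65.0% and held 8 CpG dinucleotides. The Trpv4 stretch of 223 bases had 71.7% G+C with 20 CpG, and that of Cgnl1, of 249 bases, had 73.5% with 19. The Slc13a4 stretch of 250 bases differed in composition, with 52.0% G+C and 4 CpG. Each 300-base window was searched on both strands for TGTTCT (a core of glucocorticoid and mineralocorticoid receptor sites), TGGAAA (a core of NFAT sites) and TAATCC (a core of OTX sites), and no matches overlapped in the windows shown. Of the 33469 windows of this length, 20.7% held TGTTCT, 22.7% held TGGAAA and 7.17% held TAATCC. Slc13a4 had 1 TGGAAA, and the windows of Scnn1b, Trpv4 and Cgnl1 had none of the 3. Of the members not shown, the windows of Scn7a and Scnn1g had none, Trpv1 had 1 TGTTCT and Trpv2 had 1 TGGAAA. The Trpv4 and Cgnl1 stretches were thus alike in base composition, whereas that of Slc13a4 was not, although all 3 genes had close to the same pattern over the arrays.

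Values are signal intensities on a linear scale, deposited with the same trimmed mean on every array, and differences are in log2(signal + 16). Tests covered the 21729 probe sets whose mean log2 value over the 15 arrays was above the 30th percentile. Of the 12 member probe sets, 7 were above it, covering Scn7a, Scnn1a, Scnn1b, Scnn1g, Trpv2 and Trpv4. The other 5 were 1 of Scnn1a, 3 of Trpv1 and the shared 1369370_s_at. The shared probe set lay just under the filter, at a mean log2 of 5.108. Signals can be compared between arrays for 1 probe set, and not between probe sets.

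A technical feature of the series touches several results. The arrays fall into 2 sets by the ratio of 5′ to 3′ signal of the Actb and Gapdh control probe sets, which reflects RNA integrity and amplification. The high set has water-deprived arrays 1 and 2 and all 5 food-deprived arrays, with mean log2 ratios of -0.86 to -0.71, and the low set has water-deprived arrays 3, 4 and 5 and all 5 controls, with ratios of -2.81 to -1.24. Water-deprived array 3 has the lowest ratio, -2.81. Food-deprived arrays and controls are never in the same set, so differences of tested probe sets between them are also given with the set as a term in the fit, where it rests on the water-deprived arrays as a bridge. The 6 marker genes of the subfornical organ (Agtr1a, Casr, Calcr, Npr1, Etv1 and Scn7a) were all above the filter, and none was at 0 on any array.

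**Figure D1:**
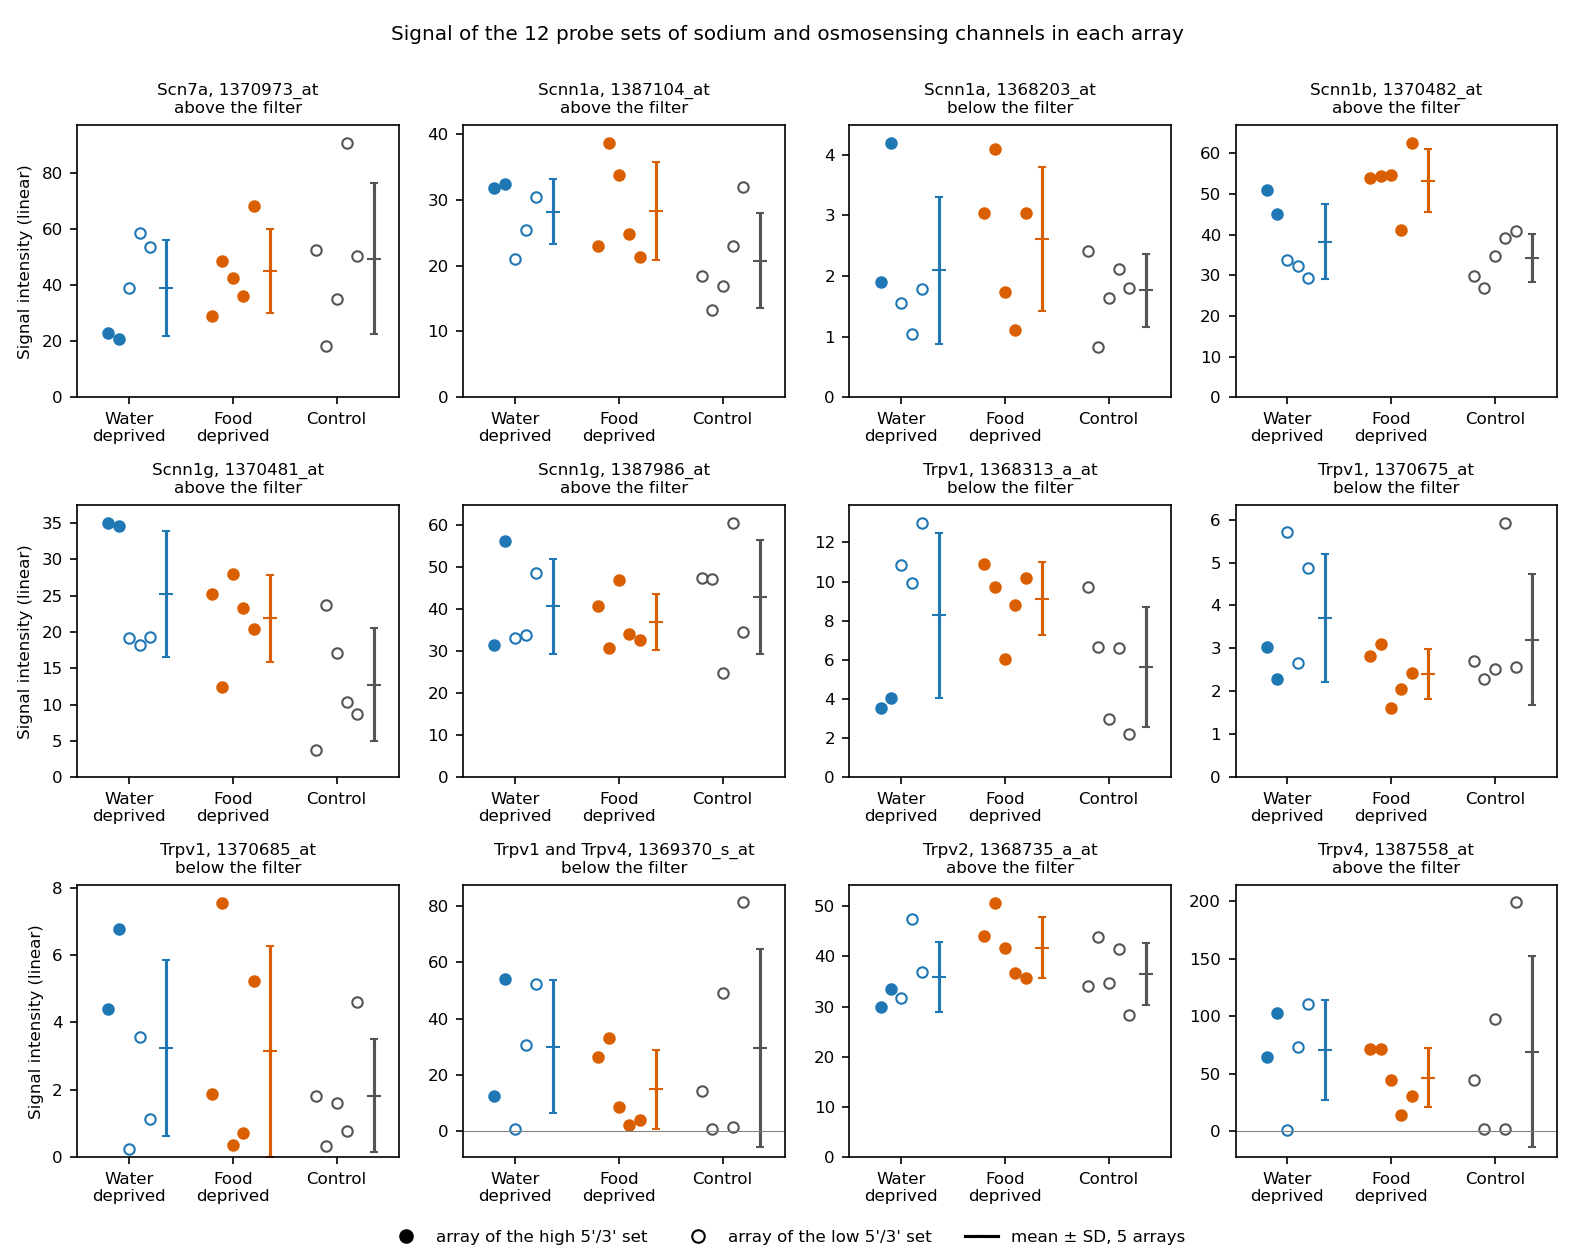
Linear signal intensity (y axis) of the 12 member probe sets in each of the 15 arrays, by group (x axis); points are arrays in replicate order, filled for the high and open for the low 5′/3′ set, with the mean ± SD of 5 arrays beside them. Scnn1b in the 5 food-deprived arrays sits between 41.2 and 62.5, above all controls (26.8 to 40.8), and Trpv4 spans 0.974 to 199.6 without separating the groups.

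Water deprivation against control asks whether lack of water alters these channels. No member probe set was called in either direction. The difference nearest to a call was in Scnn1g (1370481_at), 0.54 higher in water-deprived arrays (SE 0.19, limma adjusted p = 0.719). Among all 21729 probe sets, 0.0046% were called higher and 0.0% lower by limma with Benjamini-Hochberg adjustment at 0.05. An unadjusted p below 0.05 was found for 1412 of them, or 6.50%.

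Food deprivation against control asks the same of lack of food. Scnn1b was higher in food-deprived arrays, by 0.46 (SE 0.13, 95% interval 0.19 to 0.74, 1.38-fold, limma adjusted p = 0.0403), and was the 1 member probe set called of the 7 tested. The background for this count is 4.77% of probe sets called higher and 3.76% called lower. With the 5′/3′ set as a term the difference of Scnn1b was 0.04 (SE 0.19, limma adjusted p = 0.966), and 0.0% of all probe sets were called in either direction.

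Water deprivation against food deprivation sets the deprived groups against each other. No member probe set was called. Scnn1b had the smallest adjusted p, being 0.36 lower in water-deprived arrays (log2 difference -0.36, SE 0.13, limma adjusted p = 0.197). Of all probe sets, 0.133% were called higher and 0.0184% lower in water-deprived arrays. A moderated F test over the 3 groups called 773 probe sets and none of the 7 members, with an adjusted p of 0.0935 for Scnn1b in limma. The 2 comparisons against control share the control arrays, so their values are not independent of each other.

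**Figure D2:**
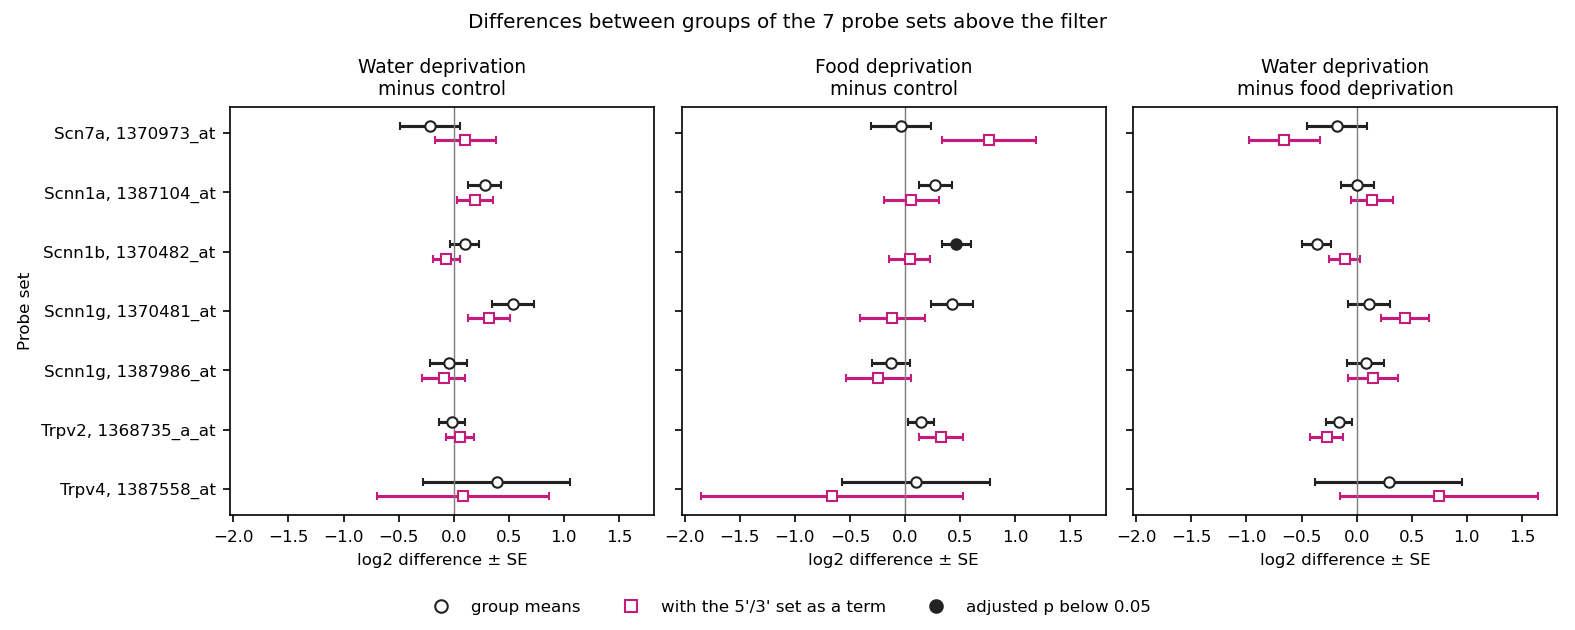
Log2 differences (x axis, ± SE of the limma fit) of the 7 member probe sets above the filter (y axis) in the 3 comparisons, from the fit of group means (circles) and with the 5′/3′ set as a term (squares). The filled circle is the Scnn1b difference of 0.46 between food deprivation and control, which is 0.04 with the set as a term.

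Scn7a encodes Nax, the sodium-level sensor. Its probe set, 1370973_at, had signals of 22.8, 20.8, 38.9, 58.5 and 53.6 in water-deprived arrays 1 to 5. The food-deprived arrays had 29.1, 48.6, 42.7, 36.2 and 68.3, and the controls 52.7, 18.4, 34.9, 90.6 and 50.5. The controls alone span the whole range, with both the lowest and the highest array of the series among them, and the 3 groups overlap. Mean signals were 38.9 ± 17.2 in water-deprived, 45.0 ± 14.9 in food-deprived and 49.4 ± 26.8 in control arrays (SD, n = 5 each), and no neighbours in that order differed beyond their spread.

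The log2 difference of Scn7a was -0.21 between water deprivation and control (SE 0.28, 95% interval -0.80 to 0.37, limma adjusted p = 0.889). It was -0.04 between food deprivation and control (SE 0.28, limma adjusted p = 0.955) and -0.18 between water and food deprivation (SE 0.28, limma adjusted p = 0.793). The 5′/3′ sets differed for this probe set. Water-deprived arrays 1 and 2, of the high set, were below every food-deprived array, whereas arrays 3 to 5, of the low set, lay inside the control range. With the set as a term the difference was 0.11 between water deprivation and control and 0.76 between food deprivation and control (SE 0.43, limma adjusted p = 0.626), both of the opposite sign to those without the term. Between water and food deprivation it kept its sign, at -0.66 (SE 0.32, limma adjusted p = 0.518). In that fit the high set was 0.80 lower than the low set for Scn7a (log2 difference -0.80, SE 0.35, limma adjusted p = 0.132). The part of the set in the differences was not tested beyond these fits.

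Scn7a varied within groups more than most probe sets. Its residual SD was 0.48 in log2, which 7.97% of the tested probe sets exceeded, against a median of 0.239. Leaving out control 4, the array with the highest Scn7a signal, brought the difference between water deprivation and control to -0.01, and leaving out control 2, the lowest, brought it to -0.42. Neither value was called.

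Scn7a was compared with the other 5 markers of the subfornical organ: the angiotensin receptor Agtr1a, the calcium-sensing receptor Casr, the calcitonin receptor Calcr, the natriuretic peptide receptor Npr1 and the transcription factor Etv1. Control 2, lowest in Scn7a, also had the lowest Agtr1a signal of the series, 54.4. Control 4, highest in Scn7a at 90.6, had Agtr1a at 279 and the highest Etv1 signal, 1245. Over the 8 arrays of the low set, Scn7a and the mean log2 of the other 5 markers had a Pearson r of 0.56 and a Spearman rho of 0.52, and r was 0.55 without control 2 and water-deprived 3, the arrays farthest out. Over the 7 arrays of the high set r was -0.04 and rho 0.07. Marker lists of other cell types reached higher values in 1 set: r was 0.66 for endothelial and mural cells and 0.60 for ependymal cells over the low arrays, and 0.79 for microglia and 0.71 for astrocytes over the high arrays. None of the 8 lists had a positive r in both sets. These points share 1 scaling.

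Water-deprived arrays 3, 4 and 5 had Casr signals of 127, 176 and 148, above all 5 controls (32.6 to 77.02), while arrays 1 and 2 had 65.8 and 63.1. Of the other markers, 3 were also above every control in these 3 arrays: Agtr1a at 347 to 416 (highest control 279), Calcr at 355 to 487 (highest control 306) and Npr1 at 148 to 175 (highest control 122). Etv1, at 660 to 908, and Scn7a, at 38.9 to 58.5, were within the control range. The share of all probe sets that separate these arrays from the controls was not counted, so this separation has no background here. Without the 5′/3′ set as a term, 4 of the 6 markers were above 0 between water deprivation and control, with a median of 0.59, and none was called. With the term 5 of the 6 were above 0, with a median of 0.98 against -0.01 over all genes. Between food deprivation and control all 6 were above 0 with the term, with a median of 0.86. That comparison passes through the water-deprived arrays of both sets, so their marker levels enter it. Without the term 2 of the 6 were above 0 between food deprivation and control, with a median of -0.04. Between water and food deprivation 2 of the 6 were above 0 with the term, with a median of -0.14. Without it 4 of the 6 were above 0, with a median of 0.53. Casr was 1.35 higher in water-deprived arrays than in controls (limma adjusted p = 0.0227), 1 of the 0.0276% of probe sets called higher in that fit, against 0.11 for Scn7a. In bulk tissue, a change in the number of cells of a type and a change in RNA per cell cannot be told apart.

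Scnn1a encodes the α subunit, which ENaC needs in order to conduct. Probe set 1387104_at had signals of 31.8, 32.4, 21.0, 25.4 and 30.3 in water-deprived arrays. The food-deprived arrays had 23.0, 38.6, 33.7, 24.8 and 21.3, and the controls 18.5, 13.2, 16.9, 23.0 and 32.0. All 5 arrays of either deprived group were above the control mean, but control 5 was higher than 4 of the 5 water-deprived arrays, so the groups overlap.

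The difference for this probe set was 0.28 between water deprivation and control (SE 0.15, limma adjusted p = 0.752) and 0.27 between food deprivation and control (SE 0.15, limma adjusted p = 0.251). It was 0.01 between water and food deprivation (SE 0.15, 95% interval -0.31 to 0.32, limma adjusted p = 0.990). With the set as a term, the differences against control were 0.19 for water and 0.06 for food deprivation, neither called. The other Scnn1a probe set, 1368203_at, was dim on every array, from 1.04 to 4.19 in water-deprived, 1.11 to 4.10 in food-deprived and 0.836 to 2.41 in control arrays. The 2 probe sets of the gene followed each other weakly, with a Pearson r of 0.26 over the 7 high and 0.28 over the 8 low arrays.

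Scnn1b encodes the β subunit, which carries a motif bound by the ubiquitin ligase Nedd4l. Probe set 1370482_at had signals of 50.9, 45.1, 33.8, 32.3 and 29.2 in water-deprived arrays. The food-deprived arrays had 53.9, 54.3, 54.6, 41.2 and 62.5, and the controls 29.9, 26.8, 34.8, 39.2 and 40.8. The lowest food-deprived array was just above the highest control, so those groups do not overlap. Such full separation in this direction was found for 9.84% of the probe sets tested.

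The water-deprived arrays of Scnn1b split by 5′/3′ set. Arrays 1 and 2, of the high set, were above every control and inside the food-deprived range, and arrays 3 to 5, of the low set, were inside the control range and below every food-deprived array. Mean signals were 38.3 ± 9.29 in water-deprived, 53.3 ± 7.66 in food-deprived and 34.3 ± 5.93 in control arrays (SD, n = 5 each). Water-deprived arrays and controls, neighbours in that order, differed by 0.10 in log2 (SE 0.13, limma adjusted p = 0.889).

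Within the high set, Scnn1b was 0.11 lower in water-deprived than in food-deprived arrays (log2 difference -0.11, SE 0.14, limma adjusted p = 0.816). Within the low set it was 0.07 lower in water-deprived arrays than in controls (log2 difference -0.07, SE 0.12, limma adjusted p = 0.973). The high set was 0.42 above the low set in that fit (SE 0.15, limma adjusted p = 0.0747), against 9.49% of all probe sets called higher and 6.44% called lower by the set alone. The 2 groups lie in different sets, so food deprivation and set cannot be told apart except through the water-deprived arrays.

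The Scnn1b call was near the threshold. Leaving out 1 array at a time, the difference between food deprivation and control stayed between 0.41 and 0.53, with limma adjusted p from 0.0265 to 0.0954. It was called in 7 of 15 such fits, and was lost without food-deprived array 1, 2, 3 or 5, or without control 1, 2, 3 or 4. Of 8 markers of endothelial and mural cells, 1 was called higher in food deprivation than in control, the tight junction gene Cldn5 (0.64, limma adjusted p = 0.0407), against 3.12% of all genes, and none of the 8 was called with the set as a term. Of the 7 oligodendrocyte markers tested, 6 were above 0 with a median of 0.56 and none was called, while 54.5% of all genes were above 0. With the set as a term 4 of the 7 were above 0, with a median of 0.06. Their summed signals were 4829 to 12910 in water-deprived, 10922 to 15345 in food-deprived and 5403 to 15024 in control arrays. Their part in the Scnn1b difference was not tested.

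Scnn1g encodes the γ subunit and lies next to Scnn1b on chromosome 1 in RefSeq. Its probe set 1370481_at had signals of 34.9, 34.5, 19.2, 18.2 and 19.2 in water-deprived arrays. The food-deprived arrays had 25.3, 12.5, 28.0, 23.2 and 20.4, and the controls 3.80, 23.7, 17.2, 10.3 and 8.75. All water-deprived arrays were above the control mean and 2 of 5, arrays 1 and 2 of the high set, were above every control.

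This probe set was 0.54 higher in water-deprived arrays than in controls (SE 0.19, 95% interval 0.14 to 0.94, 1.45-fold), with an unadjusted p of 0.0120 and a limma adjusted p of 0.719. It was 0.42 higher in food-deprived arrays (SE 0.19, limma adjusted p = 0.168). Control 1, at 3.80, was the lowest array, and without it the 2 differences were 0.41 and 0.30. With the 5′/3′ set as a term they were 0.32 for water deprivation (limma adjusted p = 0.892) and -0.12 for food deprivation (limma adjusted p = 0.927).

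The second Scnn1g probe set, 1387986_at, did not show the same pattern. It had 31.3, 56.2, 33.0, 33.7 and 48.6 in water-deprived, 40.7, 30.7, 46.8, 34.0 and 32.5 in food-deprived, and 47.4, 47.1, 24.7, 60.3 and 34.5 in control arrays. The groups overlap throughout, and the differences against control were -0.05 for water (SE 0.17, limma adjusted p = 0.965) and -0.13 for food deprivation (SE 0.17, limma adjusted p = 0.680). With the set as a term they were -0.09 and -0.24, neither called. The 2 probe sets had a Pearson r of 0.56 over the 7 high and -0.26 over the 8 low arrays, so they disagree on the level of 1 gene. The ENaC subunits did not follow each other either: Scnn1b and Scnn1g (1370481_at) had r of -0.35 over the high and -0.40 over the low arrays.

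Trpv1 encodes the capsaicin receptor, and lies next to Trpv3 on chromosome 10 in RefSeq. Its 3 own probe sets were all below the filter. Probe set 1368313_a_at had 3.54, 4.06, 10.8, 9.95 and 12.98 in water-deprived, 10.9, 9.73, 6.06, 8.79 and 10.2 in food-deprived, and 9.72, 6.64, 2.99, 6.62 and 2.23 in control arrays. Water-deprived arrays 1 and 2, of the high set, were below every food-deprived array. Arrays 3 to 5, of the low set, were above every control. The share of all probe sets that separate in this way was not counted, so this separation has no background here. This probe set was also dim, with a lower mean log2 in only 13.7% of probe sets, so the order of its signals is uncertain. In a fit without a filter its differences against control were 0.16 for water (SE 0.12, limma adjusted p = 0.840) and 0.22 for food deprivation (SE 0.12, limma adjusted p = 0.290). Adding the set as a term moved them to 0.34 for water (SE 0.11, limma adjusted p = 0.750) and 0.68 for food deprivation (SE 0.17, limma adjusted p = 0.477), and water against food deprivation gave -0.34 (SE 0.13, limma adjusted p = 0.466). In that fit the high set was 0.46 lower than the low set (log2 difference -0.46, SE 0.14, limma adjusted p = 0.0473), against 7.09% of all probe sets called higher and 4.19% called lower by the set.

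The other Trpv1 probe sets were dimmer. Probe set 1370675_at ran from 2.29 to 5.71 in water-deprived, 1.62 to 3.10 in food-deprived and 2.29 to 5.92 in control arrays. Probe set 1370685_at ran from 0.242 to 6.76 in water-deprived, 0.350 to 7.54 in food-deprived and 0.322 to 4.62 in control arrays. In the fit without a filter none of the 12 member probe sets was called in any comparison. The background of that fit was 0.00644% called higher and 0.00322% lower for water deprivation against control, and 3.8% and 2.73% for food deprivation against control. For water against food deprivation it was 0.0548% and 0.0161%. With the set as a term and no filter, none of the 12 was called between groups either. The background was then 0.0226% higher and 0.0% lower for water deprivation against control, 0.00322% in each direction for food deprivation against control, and 0.00966% and 0.00322% for water against food deprivation.

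Trpv2 had the smallest spread of the 7 probe sets tested. Probe set 1368735_a_at had 30.02, 33.5, 31.7, 47.5 and 36.9 in water-deprived, 44.1, 50.6, 41.6, 36.8 and 35.7 in food-deprived, and 34.0, 44.0, 34.7, 41.4 and 28.3 in control arrays. The highest array was 1.79 times the lowest, and all 3 groups overlap. The residual SD was 0.17 in log2, which 78.8% of the tested probe sets exceeded.

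The Trpv2 difference was -0.02 between water deprivation and control (SE 0.12, 95% interval -0.27 to 0.23, limma adjusted p = 0.982). It was 0.14 between food deprivation and control (SE 0.12, 95% interval -0.11 to 0.39, limma adjusted p = 0.488) and -0.16 between water and food deprivation (SE 0.12, limma adjusted p = 0.545). With the set as a term they were 0.06, 0.33 and -0.27 in the same order, none called.

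Trpv4 had the largest spread of the 7. Probe set 1387558_at had 64.5, 103, 0.974, 73.6 and 110.2 in water-deprived arrays. The food-deprived arrays had 71.9, 71.9, 44.6, 14.5 and 30.9, and the controls 44.3, 1.72, 97.5, 2.24 and 199.6. Water-deprived 3, control 2 and control 4 were close to 0 while control 5 was the highest of all, so most of the range lies inside the control group. Signals this close to 0 have no reliable order among themselves.

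Mean Trpv4 signals were 70.4 ± 43.3 in water-deprived, 46.8 ± 25.3 in food-deprived and 69.1 ± 82.9 in control arrays (SD, n = 5 each), and the groups overlap. The differences against control were 0.39 for water deprivation (SE 0.67, 95% interval -1.03 to 1.81, limma adjusted p = 0.918) and 0.10 for food deprivation (SE 0.67, limma adjusted p = 0.950). The difference between water and food deprivation was 0.29 (SE 0.67, limma adjusted p = 0.870). The Trpv4 differences with the set as a term were 0.08 for water deprivation (SE 0.78) and -0.66 for food deprivation (SE 1.19), each against control, neither called. The residual SD of 1.21 in log2 was exceeded by 0.202% of the tested probe sets. Single arrays moved the difference between water deprivation and control from -0.02 (without control 2) to 0.91 (without water-deprived 3).

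The probe set shared by Trpv1 and Trpv4, 1369370_s_at, had the same pattern. It had 12.6, 54.0, 0.745, 30.9 and 52.2 in water-deprived, 26.5, 33.0, 8.67, 2.45 and 3.99 in food-deprived, and 14.3, 0.856, 49.1, 1.57 and 81.6 in control arrays. The same 3 arrays, water-deprived 3, control 2 and control 4, were lowest, and control 5 was again highest. Its log2 values and those of the Trpv4 probe set had a Pearson r of 0.91 over the 7 high and 0.99 over the 8 low arrays. The 3 probe sets of Trpv1 alone stayed at or below 12.98 on every array.

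The levels of Trpv4 went with those of choroid plexus markers. Of the 8 markers listed, 6 had a probe set: Ttr, Folr1, Kl, Kcnj13, Otx2 and Cldn2. Kcnj13 was below the filter and none was at 0. Their summed signal ran from 2381 to 10812 in water-deprived, 5182 to 9798 in food-deprived and 3333 to 8249 in control arrays, so the span lies within groups as it does for Trpv4.

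Cldn2, a claudin of the choroid plexus epithelium, had a signal of 12.99 in water-deprived 3, 26.2 in control 2 and 77.9 in control 4, the 3 arrays with the lowest Trpv4. It had 1369 in control 5, the array with the highest Trpv4. Folr1, the folate receptor of that epithelium, had 105 in water-deprived 3, 118 in control 2, 288 in control 4 and 1679 in control 5. Of the 6 markers, 5 were higher in control 5 than in each of those 3 arrays. The exception was Ttr, the transthyretin gene, with 3521 in control 5 and 3819 in control 4. Over other arrays Kcnj13 did not follow Trpv4. In the high set it had 11.99 in water-deprived 2, where Trpv4 was highest, and 23.8 in food-deprived 4, where Trpv4 was lowest. In water-deprived 5, with Trpv4 at 110.2, it had 5.53, below control 2 (11.5) and control 4 (8.49).

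Over the 8 arrays of the low set, Trpv4 and the mean log2 of the 6 markers had a Pearson r of 0.96 and a Spearman rho of 1.0, which includes the order of the 3 lowest arrays. Without water-deprived 3 and control 2, the arrays farthest out, r was 0.99 over 6 arrays. Over the 7 arrays of the high set r was 0.97 and rho 0.86, and r was 0.91 over 5 arrays without food-deprived 4 and water-deprived 2. The shared probe set had r of 0.94 over the low and 0.89 over the high arrays. These are descriptions over arrays that share 1 scaling.

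Other cell type markers ran with or against Trpv4 less closely. Pearson r with the ependymal markers was 0.73 over the high and 0.83 over the low arrays. With the neuronal markers it was -0.85 and -0.79, and with the astrocyte markers -0.78 and -0.76, in the same order of sets. With the markers of the subfornical organ r was -0.10 and -0.11.

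Another fit had the choroid plexus marker level as a term in place of the 5′/3′ set, an alternative chosen after seeing the data. The Trpv4 difference was then -0.02 between water deprivation and control (SE 0.25) and -0.53 between food deprivation and control (SE 0.26, limma adjusted p = 0.185). Between water and food deprivation it was 0.51 (SE 0.25, limma adjusted p = 0.256). Without the term each standard error was 0.67. Trpv4 changed by 1.23 in log2 per log2 unit of marker level (SE 0.12). In the same fit Scnn1b was 0.41 higher in food deprivation than in control and still called (limma adjusted p = 0.0492), with the 5′/3′ set not accounted for.

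**Figure D3:**
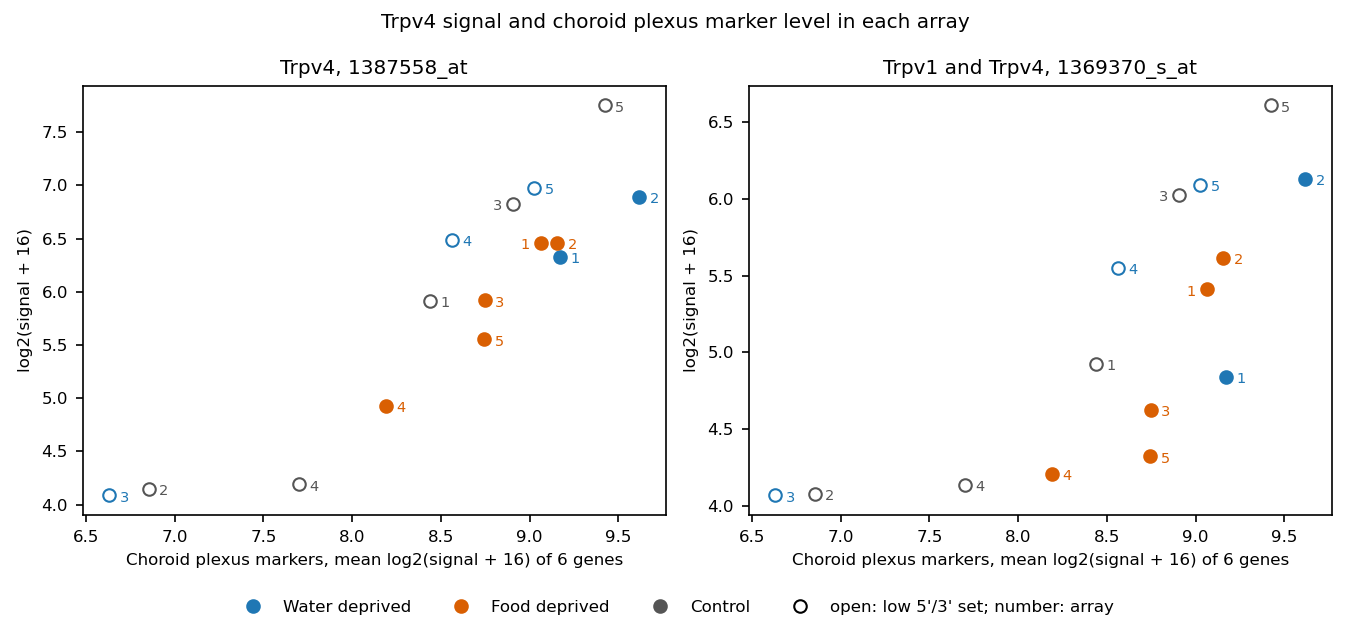
Log2(signal + 16) of the Trpv4 probe set (left) and of the probe set shared by Trpv1 and Trpv4 (right) against the mean log2(signal + 16) of 6 choroid plexus markers, 1 point an array, coloured by group and filled for the high 5′/3′ set. Water-deprived 3, control 2 and control 4 lie at the lower left and control 5 at the upper right, with r of 0.97 over the 7 high and 0.96 over the 8 low arrays on the left.

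Genes most like a member were sought for the 6 members with a tested probe set, so not for Trpv1. They were ranked by the lower of the Pearson correlations over the high and over the low arrays, among 11504 genes. For Trpv4 they were Slc13a4 (0.99), a sulfate transporter, Cgnl1 (0.98), a junction protein, and Cldn2 (0.98), which is on the choroid plexus list. For Trpv4, 181 genes were above 0.9 on this measure. None of the other 5 members ranked had more than 1 such gene.

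For Scn7a the nearest genes were Popdc3 (0.90), Pwwp3b (0.84) and Gtf2f2 (0.83). For Scnn1b they were Crcp (0.82), Pced1a (0.79) and Lysmd3 (0.75), and for Scnn1a Kdf1 (0.79), Zc3h18 (0.78) and Tm2d2 (0.78). Scnn1g, by its probe set 1387986_at, was nearest to C1h10orf88 (0.72), Slc35a2 (0.71) and Flt1 (0.71). Trpv2 was nearest to Fis1 (0.91), Pnpla7 (0.88) and Prcp (0.83). With 7 and 8 arrays and 11504 genes, values of this size are the top of a long list.

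Genes around these channels were described by 6 lists, each gene by its brightest probe set. In water deprivation against control no gene of any list was called, against 0.00869% of all 11510 genes called higher and 0.0% lower. In water against food deprivation none was called either, against 0.0956% higher and 0.0% lower. In food deprivation against control 2 genes were called higher and 2 lower over the 6 lists. The background there is 3.12% of genes called higher and 2.62% called lower. With the 5′/3′ set as a term no gene of any list was called in any comparison, against 0.0434% of all genes higher in water deprivation than in control.

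Of the 13 regulators of ENaC, 12 had a probe set and 10 were tested. Nedd4, a ubiquitin ligase related to the one that removes ENaC from the membrane, was 0.74 lower in food deprivation than in control (log2 difference -0.74, SE 0.13, 1.67-fold, limma adjusted p = 0.00497). Its 4 other probe sets gave 0.27, 1.40, 1.08 and -0.10, so they do not share a direction, and with the set as a term the first gave -0.24. The median of the 10 was 0.07 in that comparison, against 0.03 over all genes tested.

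In water deprivation against control the median of the ENaC regulators was 0.05, against -0.00050 over all genes. The genes with the smallest p were Nedd4, at -0.25, and the mineralocorticoid receptor Nr3c2, at 0.40 (limma adjusted p of 0.752 and 0.761). The other Nedd4 probe sets gave 0.01, 0.04, 0.15 and -0.40 in this comparison. In water against food deprivation Nedd4 had 0.49 (limma adjusted p = 0.104). The kinase Wnk1, an activator of ENaC through Sgk1, had -0.24 (limma adjusted p = 0.289). The other Nedd4 probe sets gave -0.26, -1.36, -0.94 and -0.31 there, all of the opposite sign. Those of Wnk1 gave -0.35 and 0.16, so they do not share a direction. With the 5′/3′ set as a term the values of 0.49 and -0.24 became 0.19 and -0.12.

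Of the 9 partners of TRPV channels, 7 had a probe set and 6 were tested. Pacsin3, which binds Trpv4 and holds it at the membrane, was 0.50 higher in food deprivation than in control (SE 0.13, 1.41-fold, limma adjusted p = 0.0347). Os9, an endoplasmic reticulum protein that binds Trpv4, was 0.79 lower (log2 difference -0.79, SE 0.20, 1.73-fold, limma adjusted p = 0.0282), while its other probe set gave 0.15. With the 5′/3′ set as a term the 2 genes gave 0.16 and 0.09. In water deprivation against control they gave 0.27 and -0.39, not called (limma adjusted p = 0.752 for both), and the other Os9 probe set gave 0.07.

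Of 19 other TRP channels, 11 had a probe set and 8 were tested. Trpv5, an epithelial calcium channel, was 0.66 higher in food deprivation than in control (SE 0.18, 1.58-fold, limma adjusted p = 0.0331), and gave -0.15 with the set as a term. The median of the 8 was 0.20 in food deprivation and 0.09 in water deprivation, each against control. Over all genes tested the medians were 0.03 and -0.00050. With the set as a term the medians of the 8 changed sign, to -0.11 in food deprivation and -0.09 in water deprivation. Without the term, the smallest p values in water deprivation belonged to Trpm3, at 0.43, and Trpc1, at 0.12 (limma adjusted p of 0.797 and 0.830). Trpv3, the neighbour of Trpv1, had no probe set of its own in the annotation used.

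The remaining lists held no call. Of the 5 degenerin relatives of ENaC, 3 were tested, and in water deprivation the acid-sensing channels Asic4 and Asic2 gave 0.32 and -0.45 (limma adjusted p of 0.752 and 0.763). Of the 6 partners of Nax, 3 had a probe set and 2 were tested: in water deprivation the scaffold gene Dlg1 gave 0.07 and the lactate transporter gene Slc16a1 gave 0.03 (limma adjusted p of 0.914 and 0.967). Of the 16 other volume- and stretch-sensitive channels, 14 were tested. There the chloride channel Clcn2 gave -0.36 and Tmem63b, an osmosensitive cation channel, -0.27 in water deprivation (limma adjusted p = 0.752 for both). In food deprivation Tmem63a, its relative, gave 0.49 (limma adjusted p = 0.0905).

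**Figure D4:**
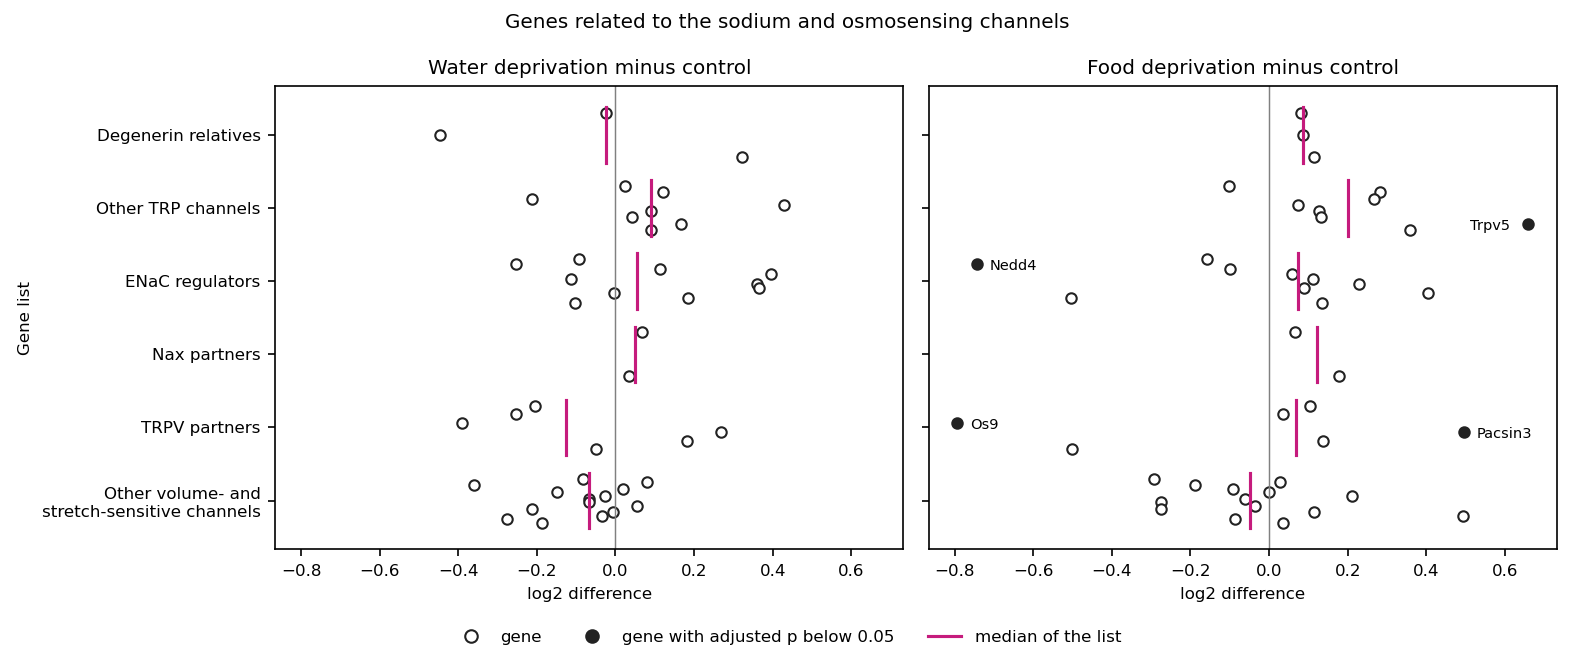
Log2 differences (x axis) of the tested genes of the 6 lists (y axis) between water deprivation and control (left) and food deprivation and control (right), 1 point a gene, with the median of each list as a bar. Filled points are the 4 genes called in food deprivation: Pacsin3 and Trpv5 higher, Nedd4 and Os9 lower.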

How the data were processed

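The authors deposited 1 linear intensity for each probe set and array. The submitters' processing notes name GCOS 1.2, with neither its role nor a scaling target. Tested on the table, every array has a trimmed mean of 100.0 (2% trimmed at each end), so no further scaling was applied. Depth has no meaning for arrays, whose number limits the precision.

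Values were taken as log2(signal + 16) from the deposited intensities. Probe sets were named from the annotation supplied with the table. Those with a mean above the 30th percentile were tested (21729 probe sets, 11510 genes). R 4.3.3 and limma 3.58.1 fitted the 3 group means together (12 residual degrees of freedom, variance trend, two-sided, Benjamini-Hochberg over all probe sets tested, threshold 0.05). With the 5′/3′ set as a term, split at a mean log2 ratio of -1, 11 remained. That fit compares water deprivation with control on the 8 low arrays and with food deprivation on the 7 high arrays. Figures and summaries used Python 3.11.15, numpy 2.4.6, pandas 2.3.3, scipy 1.17.1 and matplotlib 3.10.9.

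The members and gene lists were chosen with earlier results of these data known. All member probe sets are named, as are list genes that passed (up to 4 a list, otherwise the 2 with the smallest p) and the 3 genes most like each member. Alternatives covered scaling, offset (1 and 64), filter, variance model, array weights, arrays in the fit, replicate number as a block, the 5′/3′ ratio, and leaving out each array.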

Additional observations from a re-analysis of the deposited data

Results flagged for a closer look

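In each group of 5 arrays, the highest or lowest array was compared with its neighbour by Dixon's gap ratio on log2(signal + 16) at its critical value, for 36 combinations of probe set and condition. Chance alone does this in about 1 of 20 such groups, and it was found in 3 of the 36. Trpv4 (1387558_at) in water-deprived array 3 had a signal of 0.974, while the other 4 water-deprived arrays had 64.5 to 110.2. This array also had the lowest choroid plexus marker level and the lowest 5′/3′ ratio of the series. Scnn1a (1368203_at) in water-deprived array 2 had 4.19, while the others had 1.04 to 1.89. Trpv1 (1370675_at) in control 4 had 5.92, while the others had 2.29 to 2.72. The probe sets of these 2 were below the filter.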

How the results depend on the processing

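The single call among the members, Scnn1b higher in food deprivation than in control (1 probe set), depended on the processing. The count was 0 with quantile normalization (Scnn1b 0.36, limma adjusted p = 0.0652), median centring (0.36, 0.0669), a filter at the 50th percentile (Scnn1b not tested), no filter at all (0.46, 0.0522), the 5′/3′ set as a term (0.04), and the 5′/3′ ratio as a continuous term (0.35, 0.285). It was 0 with the replicate number as a block (0.46, SE 0.15, limma adjusted p = 0.0805) and with the set as a term and the replicate block, where Scnn1b gave -0.083 (limma adjusted p = 0.936). Array weights gave a count of 2, adding Scnn1g (1370481_at, 0.58, limma adjusted p = 0.0180), in a fit that called 3458 probe sets higher and 2382 lower of 21729. They also gave 1 lower in water than in food deprivation, Scnn1b (-0.47, limma adjusted p = 0.0203), where the count was 0. That fit called 1789 probe sets lower in water than in food deprivation, against 4 without weights. Leaving out each array gave counts of 0 to 1. The cause of these shifts was not tested, except that the stricter filter removes Scnn1b. The call was kept with offsets of 1 and 64, no variance trend, only the 10 arrays compared, and the choroid plexus level as a term, all without the 5′/3′ set. Over 15 pairs of same-numbered arrays, correlations of their deviations from the group means ran from -0.36 to 0.37, 3 of them above 0.1. The 5′/3′ split of the water-deprived arrays enters these deviations, so they cannot settle whether the numbers pair the samples. Differences that were not called changed sign in 6 of 20 cases with the set as a term and in 24 of 300 with 1 array left out. The 5 dim probe sets have no test with a filter, and Trpv1 rests on them alone.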
